A study of Homo sapiens with 12 samples.

Results

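INA-6, a human myeloma line that needs interleukin 6 to grow, was compared with the sister myeloma lines MM.1S and MM.1R, all cultured without stromal cells. The comparison took the 2 INA-6 arrays and the 4 MM.1 arrays of cells cultured alone, chosen by their labels, which are 6 of the 12 arrays of the series, and weighted both MM.1 lines equally. It was made across 14332 genes, of 19775 that the array measures with a probe set of a single gene symbol. The series asked how stromal contact changes myeloma expression: each of the 3 lines, stably expressing green fluorescent protein, was grown for 24 hours either by itself or with the human marrow stromal line HS-5, and fluorescent cells were sorted from the stroma after coculture. Each of the 6 groups (INA-6 alone, MM.1S alone, MM.1R alone, and the same lines in coculture) has 2 arrays of total RNA. The depositors call the 2 arrays of a group technical replicates, so each line stands here as 1 culture, and p-values measure only the spread between such arrays. MM.1S and MM.1R come from the same patient, MM.1R being the glucocorticoid-resistant derivative, so they are not independent lines. Whether interleukin 6 was in the medium is not given in the sources used here.

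Interleukin 6 binds its receptor subunit IL6R and the shared signalling subunit gp130, encoded by IL6ST, and JAK kinases then activate the transcription factor STAT3. Myeloma cells are malignant plasma cells, and lines differ by founding lesions: MM.1 cells carry a translocation that places the transcription factor gene MAF under immunoglobulin heavy chain control, and MAF drives cyclin D2 and integrin beta 7. MHC class II genes, which present peptides to helper T cells, are read by the coactivator CIITA through X and Y boxes in their promoters and are usually shut down in plasma cells.

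The INA-6 alone arrays stood apart from the other arrays before any comparison. Their 2 duplicates correlated at 0.829 over genes, against 0.941 to 0.987 in the other 5 groups, and 39.4% of genes were over 2-fold apart between them, against 2.85% to 13.3%. Replicate 2 was the one further from the same line in coculture (0.65 to 0.655, against 0.789 to 0.801 for replicate 1). MM.1S alone arrays correlated with their own line in coculture at 0.843 to 0.876, and MM.1R alone arrays at 0.907 to 0.933. Between lines, INA-6 coculture arrays correlated with MM.1 coculture arrays at 0.889 to 0.903. INA-6 alone arrays were thus further from their own line in coculture than INA-6 and MM.1 coculture arrays were from each other. The ratio of the 3′ to the 5′ ACTB probe set, a measure of RNA length, was 5.52 in INA-6 alone, 22.4 in MM.1S alone and 31.4 in MM.1R alone. In coculture the order was opposite, with 32 in INA-6 against 5.11 and 5.21. Upper-quartile intensities were 69.93 and 73.61 in INA-6 alone and 99.18 to 107.49 in the MM.1 arrays alone. The spike-in control BioB averaged 3388 in INA-6 alone, 1832 in MM.1S alone and 543 in MM.1R alone. Its means in the coculture groups were 337.8 to 776.5. The part of these differences in the results was not tested; the coculture arrays share none of the arrays compared here, and their values are given beside most genes named.

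Of the 14332 genes, 5635 (39.3%) differed between INA-6 and MM.1 cells alone at an adjusted p under 0.05 in limma's moderated test, with 2191 higher in INA-6 (15.3%) and 3444 lower (24%). Differences are on the scale log2(intensity + 5), which understates changes of dim genes. The fit shared the spread of each gene across the groups. The median absolute difference between duplicates was 0.783 log2 units in INA-6 alone, 0.255 in MM.1S alone and 0.187 in MM.1R alone. SEs and adjusted p-values given here, and the counts resting on them, therefore lean on the tighter MM.1 duplicates. They can be too small where INA-6 duplicates disagree. In these bulk samples, fewer cells expressing a gene and less RNA per cell cannot be told apart. Requiring INA-6 to lie at least 2-fold from each MM.1 line kept 4578 genes (31.9%), 1618 higher (11.3%) and 2960 lower (20.7%). At an unadjusted p under 0.05 the count was 7257 (50.6%), and in 7923 genes (55.3%) the ranges of the INA-6 and MM.1 arrays did not overlap, 3393 with INA-6 above (23.7%) and 4530 with INA-6 below (31.6%). The median absolute difference between INA-6 and MM.1 cells was 0.99 log2 units alone and 0.42 in coculture. Between MM.1R and MM.1S alone it was 0.40. Without INA-6 replicate 1 the count was 8284, and without INA-6 replicate 2 it was 6586. Leaving out an MM.1S array gave 3010 or 3273, and leaving out an MM.1R array 2432 or 2655. The direction split depended on scaling: 61.1% of called genes were lower in INA-6 as deposited, 51.9% after quantile normalization and 43.3% after centring each array, which moved the median of all genes from -0.06 to 0.09 and 0.35.

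In coculture 6628 genes (46.2%) differed between the same lines, 3010 higher (21%) and 3618 lower (25.2%), and 2556 (17.8%) differed with the same sign in both cultures, 842 higher (5.87%) and 1714 lower (12%). Those 2556 were 45.36% of the genes called alone and 38.56% of those called in coculture. A further 749 genes (5.23%) passed in both with opposite signs, and 2330 called alone did not pass in coculture. The difference itself between the cultures passed for 5545 genes (38.7%). Large differences were kept more often: of genes at least 16-fold higher alone, 67 of 87 passed the same way in coculture, and of genes at least 16-fold lower, 156 of 167 did. Among differences under 2-fold the shares were 29.5% and 37.9%.

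**Figure D1:**
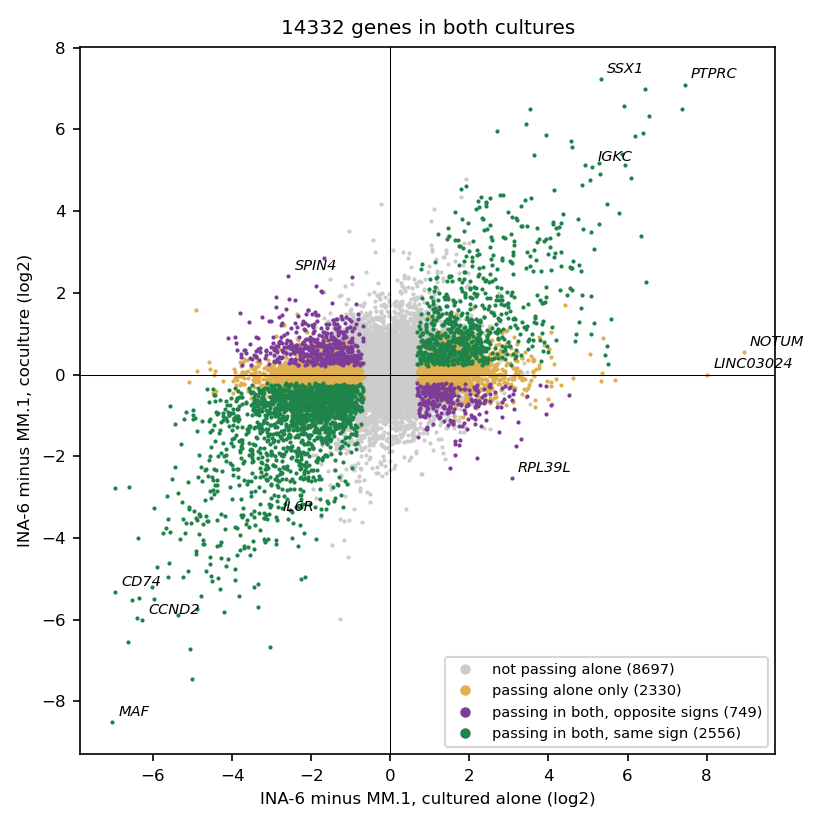
Difference between INA-6 and MM.1 cells (log2) alone (x axis) and in coculture (y axis), 1 point per gene, coloured by which tests it passed. MAF, CCND2 and CD74 lie low in both cultures and PTPRC and SSX1 high in both, while NOTUM and LINC03024 lie at 8.94 and 8.01 alone and near 0 in coculture.

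**Figure D2:**
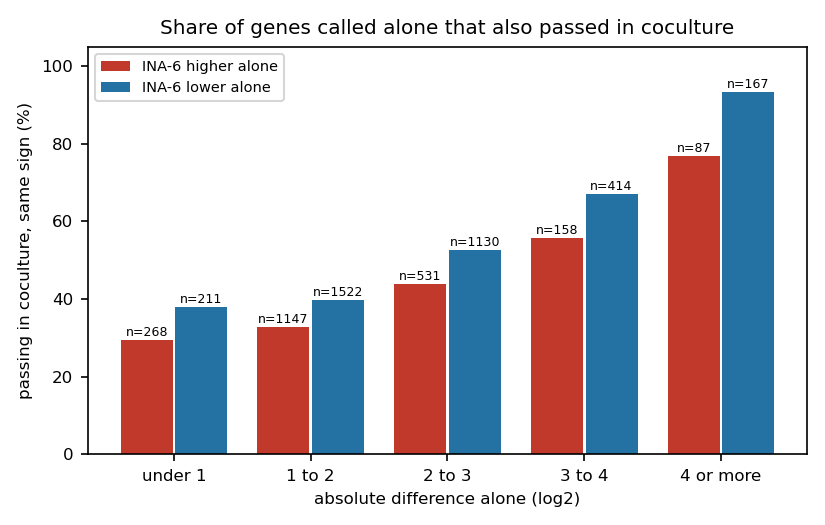
Percent of genes called alone that also passed with the same sign in coculture (y axis, from 0), by the absolute difference alone in log2 units (x axis), with the number of genes called above each bar. The share rises from 29.5% to 77% for genes higher in INA-6 and from 37.9% to 93.4% for genes lower in INA-6.

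MAF, CD74 and RGS1 had the most negative differences among the genes 2-fold below each MM.1 line, at -7.04 ± 0.34, -6.97 ± 0.20 and -6.97 ± 0.21, closer together than their SEs. Without INA-6 replicate 1, MAF was -6.53 and RGS1 -7.10. MAF read 2998 and 2856 in the MM.1S arrays, 3201 and 3219 in the MM.1R arrays and 11.5 and 28.2 in the INA-6 arrays. Both INA-6 arrays lay far below all 4 MM.1 arrays, and the difference was -7.04 ± 0.34 log2 units (SE), adjusted p = 0.0011, and -8.51 in coculture; the 4 other tested MAF probe sets had the same sign. Of 10 tested genes listed as MAF targets, 6 were lower (60%, against 24% of all genes) and 0 were higher, with a median of -3.70 against -0.06 over all genes, and 9 were lower in coculture. The list was chosen with MAF biology and earlier results of these data in view. Without INA-6 replicate 1 the list median was -3.91, and without replicate 2 it was -3.49.

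Cyclin D2, which drives entry into the cell cycle, was also lower. In INA-6 CCND2 read 16.8 and 62.9, in MM.1S 1977 and 1861, and in MM.1R 4753 and 4524. The groups did not overlap, the difference was -6.28 ± 0.49 (adjusted p = 0.0018), and it was -6.01 in coculture. Across the arrays ITGB7 was 427 and 366 (INA-6), 3570.1 and 3424 (MM.1S) and 4992 and 4539.7 (MM.1R). This gene encodes integrin beta 7, which pairs with alpha chains for adhesion to E-cadherin and MAdCAM, and it differed by -3.35 ± 0.21 alone and -5.70 in coculture. For CCR1, intensities were 38.9 and 44.4 in INA-6 against 1670.2 and 1563 in MM.1S and 2195 and 2062 in MM.1R. The chemokine receptor CCR1 differed by -5.32 ± 0.20 alone and -4.02 in coculture. The kinase gene NUAK1 (-5.58 ± 0.20 alone, -3.87 in coculture), the mTOR inhibitor gene DEPTOR (-4.05 ± 0.26 and -2.76) and ARID5A (-4.39 ± 0.32 and -2.71) were the other lower members, each kept in coculture. RND3, SMARCA1, NTRK2 and CRYBB1 did not pass alone, with CRYBB1 at -1.28 ± 0.56 alone and -5.99 in coculture.

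Cyclin D1 ran the other way. CCND1 intensity was 863 and 1014 in the INA-6 arrays, 354 and 258 in MM.1S and 414 and 400.3 in MM.1R. INA-6 was above all 4 MM.1 arrays by 1.40 ± 0.24 (adjusted p = 0.011), and by 1.68 in coculture; this call was lost under 6 of 21 alternatives (adjusted p up to 0.084), leaving out either MM.1R array among them. CCND3, encoding cyclin D3, was -0.94 ± 0.20 alone and -0.69 in coculture, a call lost under 11 of 21 alternatives (adjusted p up to 0.17), leaving out any 1 of the 4 MM.1 arrays among them. Of 13 tested translocation oncogenes and cyclins D, 1 was higher (7.69%, against 15.3% of all genes) and 7 were lower (53.8%, against 24%). MYC did not pass: MYC read 1442 and 1390.1 in the MM.1S arrays, 1362 and 1435 in the MM.1R arrays and 2165 and 1673 in the INA-6 arrays. Its difference was 0.43 ± 0.22 (adjusted p = 0.17), and -0.85 in coculture; it passed alone under 4 of 21 alternatives, among them without INA-6 replicate 2 (0.62, adjusted p = 0.03).

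**Figure D3:**
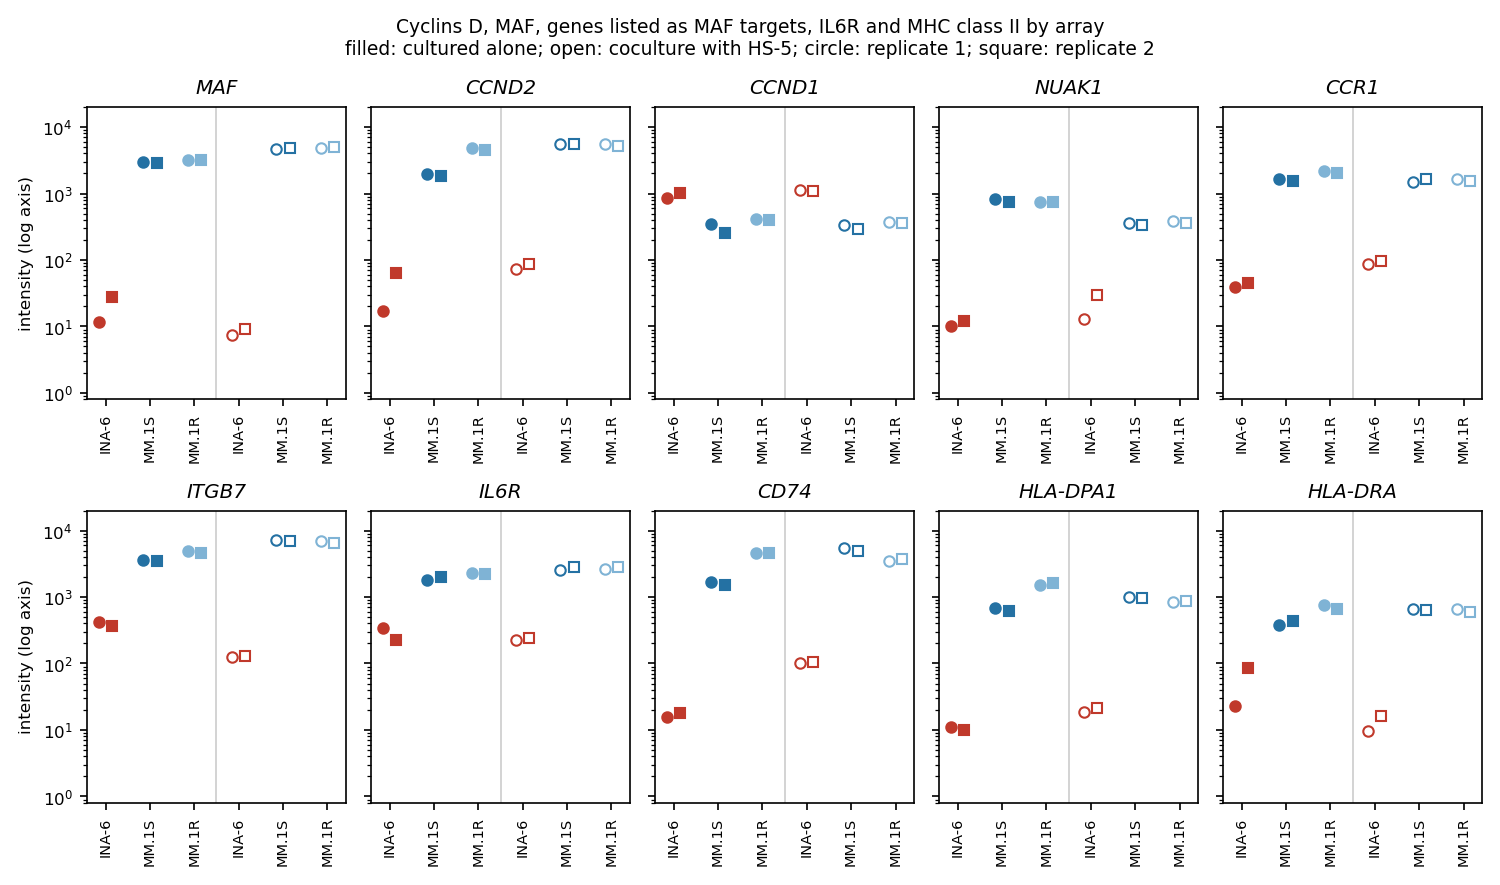
Intensity (log axis) of 10 genes in each array, by line, alone (filled) and in coculture (open). INA-6 is below every MM.1 array in both cultures for 9 of the genes, MAF among them, and above every MM.1 array for CCND1.

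The interleukin 6 pathway was not uniformly different. IL6R, the ligand-binding subunit, was lower in INA-6. In INA-6 IL6R read 347 and 225, in MM.1S 1827 and 2023, and in MM.1R 2303 and 2239. The ranges did not overlap, and the difference was -2.88 ± 0.26 (adjusted p = 0.0024) alone and -3.49 in coculture. IL6 itself was dim and its arrays scattered. Across the arrays IL6 was 35.6 and 101 (INA-6), 5.69 and 27 (MM.1S) and 24.2 and 25.8 (MM.1R). Its difference of 1.48 ± 0.61 did not pass (adjusted p = 0.11); in coculture group means were 1598 in INA-6, 2582 in MM.1S and 5125 in MM.1R. HS-5 cells are known to secrete interleukin 6, and how much of that RNA came from them was not tested. IL6ST (-0.71 ± 0.32, adjusted p = 0.14), STAT3 (-0.59 ± 0.59, adjusted p = 0.46) and the feedback inhibitor SOCS3 (0.03 ± 0.25, adjusted p = 0.93) did not pass. With the mean of all tested probe sets SOCS3 passed, at 1.22 (adjusted p = 0.041). Without INA-6 replicate 1, IL6ST passed at -1.18 (adjusted p = 0.0061) and STAT3 at -1.59 (adjusted p = 0.0054); IL6ST passed under 3 of 21 alternatives in all. The 3 other tested STAT3 probe sets had the opposite sign to the one used.

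Across the 30 tested genes of this pathway, 4 were higher and 10 lower, 46.7% called against 39.3% of all genes, with a median of -0.54. Besides IL6R, the interleukin 4 receptor gene IL4R (-4.43 ± 0.23 alone, -2.70 in coculture) and IL21R (-2.83 ± 0.35 and -2.96) were lower in both cultures, as was the phosphatase gene PTPN6 (-2.97 ± 0.32 and -0.73). The 4 higher genes were PTPN2, OSMR, JUNB and SOCS2, and none of them was higher in coculture. PTPN2, a phosphatase acting on JAK and STAT proteins, was 2.26 ± 0.35 alone and -0.70 in coculture, and its sign alone turned with another choice of probe set.

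MHC class II genes were mostly lower in INA-6: of 15 tested, 8 were lower (53.3%, against 24% of all genes) and 1, the protease gene CTSS, was higher, with a median of -1.86 alone and -1.20 in coculture. Promoters are shown for the 3 lower genes whose window holds an X box, with X and Y boxes in capitals. They are RefSeq sequences on GRCh38.p14, 250 bases before to 50 after the gene start, read on the gene's strand, here the minus strand in each case, at chr6:32953048-32953347 (HLA-DMA), chr6:32666608-32666907 (HLA-DQB1) and chr6:32940979-32941278 (HLA-DMB).
HLA-DMA: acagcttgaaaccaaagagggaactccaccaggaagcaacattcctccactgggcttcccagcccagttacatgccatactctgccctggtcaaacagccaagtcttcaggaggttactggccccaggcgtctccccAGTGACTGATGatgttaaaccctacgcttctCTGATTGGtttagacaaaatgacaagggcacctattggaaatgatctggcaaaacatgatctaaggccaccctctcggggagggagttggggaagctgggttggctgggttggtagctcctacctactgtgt
HLA-DQB1: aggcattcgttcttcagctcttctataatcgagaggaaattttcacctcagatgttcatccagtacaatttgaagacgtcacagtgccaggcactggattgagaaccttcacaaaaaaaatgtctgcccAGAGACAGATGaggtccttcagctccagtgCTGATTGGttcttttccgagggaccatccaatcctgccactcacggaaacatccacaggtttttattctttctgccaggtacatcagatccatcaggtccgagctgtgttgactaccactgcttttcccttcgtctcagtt
HLA-DMB: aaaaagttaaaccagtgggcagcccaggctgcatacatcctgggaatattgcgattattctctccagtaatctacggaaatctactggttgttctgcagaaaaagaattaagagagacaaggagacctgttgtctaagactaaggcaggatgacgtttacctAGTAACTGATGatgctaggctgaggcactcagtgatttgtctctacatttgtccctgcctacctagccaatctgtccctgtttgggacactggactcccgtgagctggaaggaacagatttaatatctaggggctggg

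The X box was searched as AGNNAC followed directly by NGATG, and the Y box as CTGATTGG, on both strands; the Y box read on the other strand contains CCAAT. Among 12 tested class II list genes with a promoter, 4 held the X box and 4 the Y box, against 0.872% and 4.16% of 27305 promoters. Of the 7 that were lower, 3 held the X box and 2 the Y box, and HLA-DRB1, which did not pass, held both. RFX5, which did not pass either, held a Y box. HLA-DPA1, counted among the 7, held neither. Its window (chr6:33080699-33080998, minus strand) lies past the start of HLA-DPB1, whose plus-strand window begins at chr6:33075740. It may therefore not hold the class II promoter, and its lack of boxes cannot be read as that of a promoter. None of 14 tested class I list genes held the X box, 4 held the Y box, 8 held CCAAT and 0 held any of the other 3 motifs. A further 4 motifs were searched. CCAAT was in 10 of the 12 class II promoters (35.7% of all), the X2 box TGACGNNA in 0 (7.82% of all), the short MAF site TGCTGA in 3 (17.4% of all) and the longer MAF site, which is the short site followed by any 4 bases and GCA, in 0 (0.359% of all). Among 8 tested MAF target genes with a promoter, the short site was in 2, neither of which passed alone, and in 0 of the 4 that were lower; CCAAT was in 4, and the other 4 motifs, the longer MAF site among them, in 0 of 8; no match says only that these letters are not in this window. Among 26 tested interleukin 6 pathway promoters the X box was in 1, the Y box in 2, CCAAT in 8, the short MAF site in 3, the X2 box in 1 and the longer MAF site in 0.

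CD74, the invariant chain that escorts class II molecules, had the largest class II difference with the probe set used. For CD74, intensities were 15.6 and 18 in INA-6 against 1686 and 1519 in MM.1S and 4544 and 4668 in MM.1R. INA-6 was far below both MM.1 lines, with a difference of -6.97 ± 0.20 (adjusted p = 0.0011), and -5.32 in coculture. Its 2 other tested probe sets were at -0.009 and 2.29, and with the mean of all tested probe sets CD74 was -1.56 (adjusted p = 0.041). HLA-DPA1 intensity was 11.1 and 9.89 in the INA-6 arrays, 693 and 609 in MM.1S and 1490.5 and 1626 in MM.1R. This alpha chain gene differed by -6.03 ± 0.20 alone and -5.20 in coculture. HLA-DRA read 379 and 438 in the MM.1S arrays, 756 and 662 in the MM.1R arrays and 22.8 and 85.3 in the INA-6 arrays. The DR alpha chain gene differed by -3.43 ± 0.51 alone and -5.21 in coculture, and INA-6 replicate 2 was the higher of its duplicates. HLA-DPB1 (-4.31 ± 0.25 alone, -5.25 in coculture), HLA-DMA (-2.87 ± 0.30 and -3.56), HLA-DQB1 (-1.86 ± 0.25 and -2.35) and HLA-DMB (-1.30 ± 0.26 and -1.20) were lower too. RFXAP, a subunit of the factor that binds the X box, was -2.42 ± 0.40 alone and 0.36 in coculture. CIITA did not pass (0.83 ± 0.51, adjusted p = 0.25), nor did HLA-DRB1 (-0.15 ± 0.30), whose probe set can cross-hybridise with related DRB genes.

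Class I genes were higher in INA-6 alone: 14 of 17 passed higher (82.4%, against 15.3% of all genes) and 0 lower, with a median of 1.33, but the median in coculture was 0.01, with 5 kept and 5 of opposite sign. NLRC5, the coactivator of class I genes, was kept. In INA-6 NLRC5 read 1172 and 1484, in MM.1S 58.5 and 69.9, and in MM.1R 46.7 and 28. It was above every MM.1 array by 4.63 ± 0.29 (adjusted p = 0.0013) and by 2.77 in coculture. Across the arrays HLA-B was 3394 and 4120.4 (INA-6), 661 and 722 (MM.1S) and 1599 and 1481 (MM.1R). HLA-B differed by 1.85 ± 0.21 alone and -0.36 in coculture. The immunoproteasome subunit gene PSMB8 was 2.04 ± 0.20 alone and 0.60 in coculture, and HLA-G was 2.53 ± 0.28 and -0.48; class I probe sets can cross-hybridise among loci.

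Immunoglobulin genes divided by light chain. Of 9 tested chain genes, 2 were higher (22.2%, against 15.3% of all genes) and 5 lower (55.6%, against 24%), all kept in coculture. For IGKC, intensities were 933 and 1564 in INA-6 against 67.7 and 42 in MM.1S and 9.45 and 27.4 in MM.1R. The kappa constant gene was higher by 5.09 ± 0.46 (adjusted p = 0.0024) and by 5.07 in coculture. IGLL5 intensity was 21.3 and 83.2 in the INA-6 arrays, 1167 and 1307 in MM.1S and 1952 and 1962 in MM.1R. This lambda-locus gene was lower, at -5.02 ± 0.52 and -7.44 in coculture. IGLC1 (-4.31 ± 0.19 alone, -4.17 in coculture), IGLL3P (-5.62 ± 0.31 and -4.95) and IGLV1-44 (-4.90 ± 0.35 and -4.31) were also lower, the last turning to 0.97 with another choice of probe set. IGHG1, an IgG heavy chain gene, was 3.34 ± 0.66 alone and 3.64 in coculture; its INA-6 duplicates read 233 and 1089. These probe sets match related sequences, so single chain genes cannot be told apart with certainty.

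Plasma cell identity genes were present in every line: 10 or 11 of 11 plasma cell markers lay above the array median in each array. Of 21 tested identity genes 8 were higher (38.1%, against 15.3% of all genes) and 2 lower (9.52%, against 24%). In coculture 8 were higher and 11 lower, and the list median was 0.44 alone and -0.24 in coculture. Of 10 tested plasma cell markers 2 were higher and 1 lower alone (30% called, against 39.3% of all genes). In coculture 1 was higher and 8 lower. Over all genes 21% were higher and 25.2% lower in coculture. FCRL5, a plasma cell surface receptor, stood out. FCRL5 read 16.6 and 9.54 in the MM.1S arrays, 8.14 and 16.3 in the MM.1R arrays and 1422 and 1089.8 in the INA-6 arrays. Its difference was 6.18 ± 0.33 (adjusted p = 0.0012), 5.83 in coculture, and 3 of 3 other probe sets had the same sign. TNFRSF17, which encodes BCMA, was 1.19 ± 0.20 alone and 0.40 in coculture, and the octamer factor gene POU2F2 was 3.14 ± 0.21 and 1.35. PRDM1, the plasma cell repressor BLIMP1, was lower, at -2.87 ± 0.31 and -2.58 in coculture, with 1 of 2 other probe sets of opposite sign. IRF4 (0.04 ± 0.27), SDC1 (-0.19 ± 0.20) and CD38 (0.30 ± 0.38) did not pass alone. Of 20 tested earlier B cell genes 3 were higher and 3 lower, 30% called against 39.3% of all genes; PAX5 was 2.30 ± 0.33 alone and 4.34 in coculture, and CD79B 4.58 ± 0.25 and 2.60, while the complement receptor gene CR2 was -4.65 ± 0.26 and -3.47.

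PTPRC, CD247 and PTPRCAP were among the 10 genes with the largest differences above both MM.1 lines that were kept in coculture. In INA-6 PTPRC read 2463 and 2692, in MM.1S 7.4 and 21.2, and in MM.1R 7.57 and 6.78. This gene encodes CD45, the leukocyte phosphatase, and differed by 7.44 ± 0.36 (adjusted p = 0.0011) and by 7.10 in coculture. Across the arrays CD247 was 961 and 636 (INA-6), 1.5 and 10.1 (MM.1S) and 1 and 3.8 (MM.1R). CD247, the zeta chain of the T cell receptor complex, differed by 6.54 ± 0.44 and 6.33. PTPRCAP, which binds CD45, was 5.27 ± 0.26 and 5.17. Of 4 tested T cell markers 1, CD3E, passed (25%, against 39.3% of all genes), at 2.10 ± 0.60 alone with INA-6 arrays at 141 and 516, and 0.65 in coculture. The summed level of the 7 T cell markers on the array was 263.1 and 647.7 in INA-6 alone and 143.8 to 245.2 in MM.1 alone, with 4 and 2 of 7 above the array median in INA-6 and 3 to 4 in MM.1; its part in the result was not tested. Other genes kept at this size were RTP3 (7.39 ± 0.23 alone, 6.49 in coculture), ACTL8 (6.45 ± 0.23 and 6.98), FAM133A (6.38 ± 0.24 and 5.92), MLC1 (5.90 ± 0.27 and 6.57) and the Wnt inhibitor gene FRZB (5.94 ± 0.23 and 5.13).

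Of 15 tested cancer-testis antigens, genes normally limited to germ cells, 8 were higher (53.3%, against 15.3% of all genes), 1 was lower and 6 did not pass, with a median of 1.53 alone and 2.40 in coculture, and 7 were kept. The array holds 22 of these genes. One silent in MM.1 cells was tested only if both INA-6 arrays exceeded their medians, so the filter partly fixes the share higher and the median. For SSX1, intensities were 561 and 517 in INA-6 against 7.8 and 8.19 in MM.1S and 8.66 and 9.44 in MM.1R. SSX1 differed by 5.33 ± 0.20 (adjusted p = 0.0011) and by 7.23 in coculture. MAGEA6 intensity was 1361 and 1694 in the INA-6 arrays, 51.5 and 32.2 in MM.1S and 25.8 and 28.8 in MM.1R. MAGEA6 differed by 5.31 ± 0.27 and 4.90. PAGE5 was 5.85 ± 0.38 alone and 5.39 in coculture, and CTAG2 4.12 ± 0.26 and 3.74. MAGEA1 (-1.02 ± 0.34) and PRAME (-0.28 ± 0.33) did not pass alone, and SPAG9 was lower (-1.17 ± 0.22 alone, -0.01 in coculture).

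**Figure D4:**
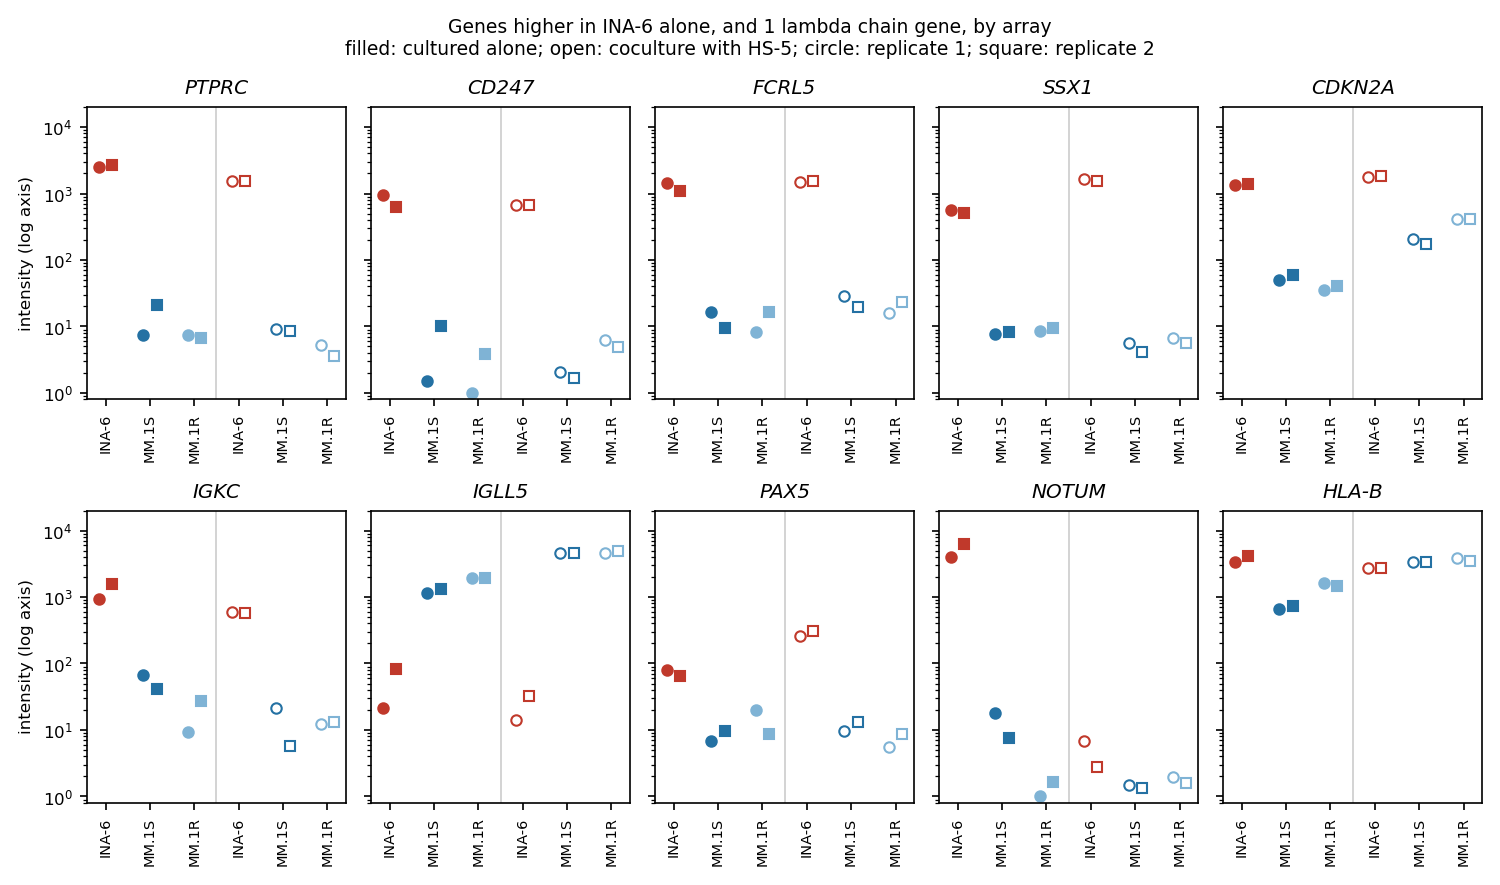
Intensity (log axis) of 10 genes in each array, by line, alone (filled) and in coculture (open). PTPRC, CD247, FCRL5, SSX1, CDKN2A, IGKC and PAX5 are above every MM.1 array in both cultures and IGLL5 is below, while HLA-B is above them only alone and NOTUM is at or below 10 in every coculture array.

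Of 16 tested CDK inhibitor and tumour suppressor genes 4 were higher and 5 lower, 56.2% called against 39.3% of all genes, and of 19 death receptor and caspase genes 4 were higher and 4 lower, 42.1% called. CDKN2A read 49.8 and 58.7 in the MM.1S arrays, 36 and 40.1 in the MM.1R arrays and 1324 and 1409 in the INA-6 arrays. CDKN2A, which encodes p16, was higher by 4.77 ± 0.21 (adjusted p = 0.0011) and by 2.67 in coculture. In INA-6 CDKN1B read 69.9 and 56, in MM.1S 1289 and 1220.4, and in MM.1R 1318 and 1500.0. CDKN1B, encoding p27, was lower, at -4.30 ± 0.22 alone and -1.35 in coculture. Across the arrays BCL2L1 was 17.7 and 4.59 (INA-6), 388 and 403 (MM.1S) and 794 and 736 (MM.1R). The survival gene BCL2L1, encoding BCL-XL, was lower, at -5.23 ± 0.39 and -3.54 in coculture. Of 13 tested BCL2 family genes 1, BIK (2.19 ± 0.35 alone, 3.06 in coculture), was higher and 6 were lower (46.2%, against 24% of all genes). BCL2 was -2.17 ± 0.36 alone but -0.01 in coculture, and its 2 other tested probe sets had the opposite sign. MCL1 did not pass (-0.37 ± 0.21).

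The NF-kB list had 10 of 25 genes lower (40%, against 24% of all genes), all kept, and 3 higher (12%, against 15.3%), with a median of -0.54. TNFAIP3, the A20 inhibitor of the pathway, led. For TNFAIP3, intensities were 73 and 33.5 in INA-6 against 2108 and 2069 in MM.1S and 2075 and 2142 in MM.1R. It was lower, at -5.26 ± 0.34 (adjusted p = 0.0013) and -3.12 in coculture. PLEK (-4.56 ± 0.32 and -4.64) and the chemokine gene CCL4 (-3.22 ± 0.24 and -2.49) were lower too. NFKB1 was 3.23 ± 0.47 alone and -1.17 in coculture. Of 24 tested surface antigens 7 were higher (29.2%, against 15.3% of all genes) and 6 lower (25%, against 24%). In coculture 3 were higher and 14 lower, against 21% and 25.2% of all genes. CD28 was -3.93 ± 0.23 alone and -4.76 in coculture, and CD52 -4.10 ± 0.19 and -4.52. The higher members included FCRL5 (6.18 alone), CD55 (3.15 alone) and ICAM1 (2.65 alone, -0.44 in coculture). SLAMF7 did not pass (-0.01 ± 0.19). Of 15 tested glucocorticoid receptor and target genes 3 were higher and 4 lower alone, 46.7% called against 39.3% of all genes. The 3 higher were TXNIP (1.84), DUSP1 (1.79) and FKBP5 (1.44), and the lower included TSC22D3 (-2.88) and NR3C2 (-2.26). NR3C1, the glucocorticoid receptor, was lower, at -2.98 ± 0.20 alone and -0.55 in coculture. NR3C1 intensity was 81.2 and 86.1 in the INA-6 arrays, 915 and 1026 in MM.1S and 506 and 486 in MM.1R. MM.1R lay between INA-6 and MM.1S.

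Of 30 tested adhesion genes 8 were higher and 5 lower, and of 14 chemokine and homing genes 1 was higher and 4 lower. The shares called, 43.3% and 35.7%, lay near the 39.3% of all genes. ITGA8 read 1438 and 1358 in the MM.1S arrays, 1591 and 1668 in the MM.1R arrays and 55.1 and 51.5 in the INA-6 arrays. The integrin alpha 8 gene differed by -4.70 ± 0.20 (adjusted p = 0.0011) alone and -4.15 in coculture. The tetraspanin gene CD9 was -4.21 ± 0.44 alone and -5.81 in coculture, and CXCR3 was -2.52 ± 0.31 and -2.04. The integrin beta 1 gene ITGB1 was 2.24 ± 0.21 alone and 0.33 in coculture, and CCR10, a receptor of plasma cell homing, was 0.75 ± 0.20 and 1.27. Among Wnt genes, 4 of 21 were higher and 3 lower, 33.3% called against 39.3% of all genes: WNT5B (-4.84 ± 0.25 and -3.41) and WNT10A (-4.54 ± 0.40 and -4.94), both ligands, were lower in both cultures.

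Signalling and metabolic genes held single members with large differences. Of 17 tested RAS-MAPK feedback genes 1 was higher and 7 lower (41.2%, against 24% of all genes). In INA-6 RASGRP3 read 8.3 and 24.7, in MM.1S 1042 and 1073, and in MM.1R 706 and 869. RASGRP3, an exchange factor that activates RAS, was -5.52 ± 0.38 (adjusted p = 0.0015) alone and -2.55 in coculture, and the phosphatase gene DUSP4 was -4.53 ± 0.31 and -1.76. Of 33 tested interferon-stimulated genes 9 were higher and 6 lower, 45.5% called against 39.3% of all genes, with IFITM1 at 4.86 ± 0.28 alone and 1.96 in coculture and GBP1 at -3.74 ± 0.26 and -3.50. Across the arrays SQLE was 1285 and 1039 (INA-6), 41.3 and 33.9 (MM.1S) and 14.4 and 17.8 (MM.1R). SQLE, an enzyme of cholesterol synthesis, was 5.28 ± 0.23 alone and 3.67 in coculture, in a list with 7 of 20 higher (35%, against 15.3% of all genes) and 4 lower. Of 29 tested hypoxia and glycolysis genes 6 were higher and 6 lower, 41.4% called, near the 39.3% of all genes, and all but 2 of them were kept in coculture; the phosphofructokinase gene PFKP was 4.14 ± 0.27 and 2.87 and the enolase gene ENO2 -5.11 ± 0.33 and -2.64. In the Notch list 1 of 19 was higher and 7 lower (42.1% called, near the 39.3% of all genes), with the target gene HES1 at -3.18 ± 0.49 and -4.10. Chromatin regulators were 5 of 28 higher and 12 lower (42.9%, against 24% of all genes), with a median of -0.85 alone and 0.07 in coculture; the methyltransferase gene EZH2 was -2.97 ± 0.54 alone and -0.50 in coculture.

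The 2 largest differences seen alone did not pass in coculture. For NOTUM, intensities were 4016 and 6356 in INA-6 against 17.7 and 7.52 in MM.1S and 1 and 1.64 in MM.1R. NOTUM, a Wnt deacylase gene, differed by 8.94 ± 0.36 (adjusted p = 0.0011) alone and 0.54 in coculture, where group means were 4.8 in INA-6, 1.42 in MM.1S and 1.77 in MM.1R. LINC03024 was 8.01 ± 0.27 alone and 0.00 in coculture. HHIP, a Hedgehog inhibitor gene, was 6.46 ± 0.27 alone and 2.26 in coculture. Of 26 tested unfolded protein response and folding genes, 17 were higher (65.4%, against 15.3% of all genes) and 2 lower, with a median of 1.18 alone and 0.09 in coculture. HSPA5 intensity was 7984 and 8454 in the INA-6 arrays, 1081 and 1195 in MM.1S and 1058 and 1065 in MM.1R. HSPA5, the chaperone BiP, was 2.90 ± 0.20 alone and 0.38 in coculture. Cytosolic ribosomal protein genes were 20 of 42 higher (47.6%, against 15.3% of all genes) and 0 lower (against 24%). Differences were above 0 in 42 of 42, against 6919 of all 14332 genes. Their median was 0.63 alone and -0.02 in coculture, and quantile normalization put the median alone at 0.11. Metallothioneins were 5 of 8 higher (62.5%, against 15.3% of all genes) and 1 lower (12.5%, against 24%), with a median of 2.21 alone and 0.95 in coculture. The ACTB 3′ to 5′ ratio was lower in INA-6 alone and higher in INA-6 coculture; its part in these values was not tested.

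**Figure D5:**
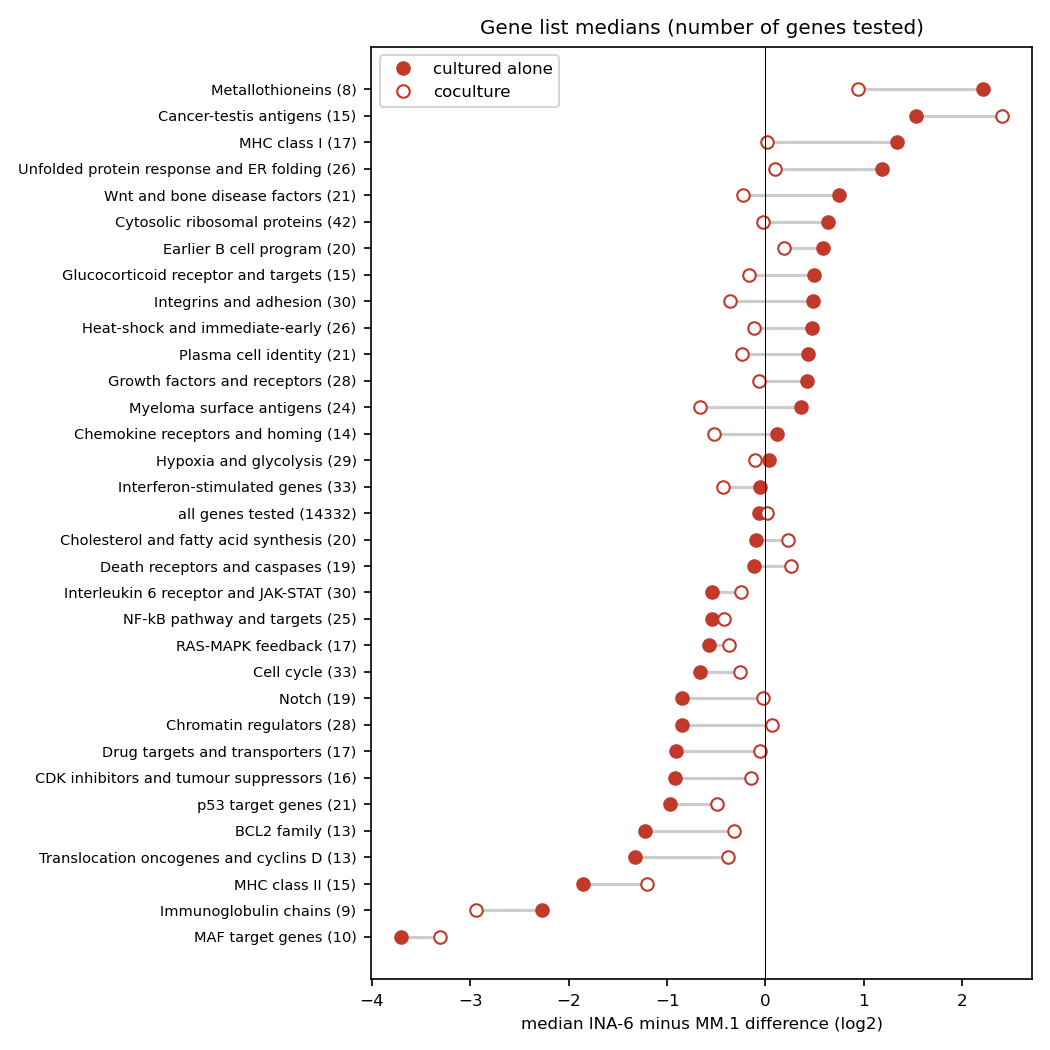
Median difference between INA-6 and MM.1 cells (log2) for each gene list and for all genes, alone (filled) and in coculture (open), with the number of genes tested in parentheses. MAF target genes (-3.70 and -3.31), immunoglobulin chains and MHC class II lie low in both cultures and cancer-testis antigens high in both, while MHC class I and the unfolded protein response lie above 0 alone and near 0 in coculture.

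Probe sets of the same gene did not always run together. Of 2960 called genes with another tested probe set, 1326 (44.8%) had at least 1 of opposite sign. Of the 10 largest genes lower in INA-6, PCP4 (-6.64 ± 0.20 alone, -6.54 in coculture), DPYSL2 (-6.61 ± 0.23 and -2.76), QPCT (-6.41 ± 0.21 and -5.97), GPAT2 (-6.38 ± 0.23 and -4.01) and CLIC2 (-6.35 ± 0.36 and -5.47) had no other tested probe set to compare. RGS1 (-6.97 ± 0.21 and -2.77) had 1 other, at -3.97, and ADAM8 (-6.52 ± 0.20 and -5.52) had 1 other, at 0.61. The stromal markers on the array summed to 3377 and 4576 in INA-6 alone and to 1096 to 1527 in MM.1 alone, with 10 to 11 of 14 above the array median in INA-6 and 8 to 11 in MM.1. In the coculture arrays they summed to 8006 and 8012 in INA-6, 9258 and 8948 in MM.1S, and 14000 and 13670 in MM.1R. VIM was the 1 of 12 tested stromal markers that was higher (2.77 ± 0.23; -0.22 in coculture), and DCN the 1 that was lower (-2.17 ± 0.33), with both other probe sets of opposite sign. The 2 erythroid markers on the array summed to 2424 and 3608 in INA-6 alone and to 762.5 to 1420 in MM.1 alone, and the 1 tested, HBB, was 1.55 alone and -0.02 in coculture. The part of other cells in these values was not tested.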

How the data were processed

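The authors deposited 1 table of linear intensity for 54675 probe sets on 12 Affymetrix arrays. Per the submitters' processing notes the values come from MAS5, whereas the series text describes dChip with averaging of duplicates; 12 separate columns were deposited, and no source used here gives a version or a setting. Gene symbols came from the platform annotation (41097 probe sets with 1 symbol, 1801 with several, 11776 with none). From the deposited intensity, log2(value + 5) was computed, 5 being the 20th percentile. A probe set was tested if it exceeded its own array's median in at least 2 of the 6 arrays alone (25828 probe sets, 14332 genes, each by its brightest tested probe set). A gene at or below the median in all 4 MM.1 arrays thus entered only through both INA-6 arrays. That was so for 368 of the 1618 genes 2-fold higher in INA-6. Of the 2960 genes 2-fold lower, 571 had both INA-6 arrays at or below their medians. limma 3.58.1 in R 4.3.3 fitted a mean per group to the 6 arrays, with INA-6 minus the equal mean of MM.1S and MM.1R as the contrast, a two-sided moderated test and Benjamini-Hochberg adjustment over all genes at 0.05, with 3 residual degrees of freedom. The same was done for coculture, and all 12 arrays gave the test of the difference between cultures. The fit was tested on simulated data with normal noise of equal spread in every group. That setting does not mirror the wider spread of the INA-6 duplicates, so it cannot show how the fit behaves under it. The number of arrays limits the precision.

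Named genes were the 10 largest in each direction 2-fold from each MM.1 line, the 10 in each direction kept in coculture, 3 in each direction of opposite sign in coculture, up to 3 per direction of each list, and 15 pathway genes; 195 were drawn, and those in the text beyond them (such as DEPTOR, ARID5A, CRYBB1, IL21R, IGLC1, MCL1, SLAMF7, CTAG2, MAGEA1, PRAME, CIITA, RFXAP, HLA-DRA, HLA-DMA, HLA-DQB1, HLA-DMB, HLA-DRB1, HLA-B and SOCS2) are members of the lists named after their values were seen. Genes of the Y chromosome were not named. Members and lists were chosen with earlier results of these data known. Promoters of 4 lists were searched for 6 motifs, and all 6 are reported in each list. Alternatives covered the pseudocount, scaling, filter, probe set, arrays fitted, block, weights, variance prior, comparison line and each array left out.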

Additional observations from a re-analysis of the deposited data

Results flagged for a closer look

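For 22 named genes the difference between INA-6 and MM.1 cells passed alone and passed in coculture with the opposite sign, and the difference between the cultures itself passed in limma on all 12 arrays. Of these, RPL39L, MPDU1, FGFR2, SPIN4, ASB2 and CYTH2 were named for their opposite signs, which fixes 6 of the 22; over all genes 749 of 14332 (5.23%) passed in both cultures with opposite signs. The first value for each is the difference alone minus that in coculture, in log2 units. Genes higher in INA-6 alone and lower in coculture were RPL39L (5.60; 3.07 alone, -2.53 in coculture), MPDU1 (4.22; 2.19 alone, -2.03 in coculture), FGFR2 (4.93; 3.17 alone, -1.76 in coculture), PTPN2 (2.97; 2.26 alone, -0.70 in coculture), OSMR (2.03; 1.53 alone, -0.50 in coculture), NFKB1 (4.40; 3.23 alone, -1.17 in coculture), ICAM1 (3.09; 2.65 alone, -0.44 in coculture) and HLA-G (3.01; 2.53 alone, -0.48 in coculture). The same held for CDK4 (1.76; 1.24 alone, -0.52 in coculture), FAS (2.22; 0.93 alone, -1.29 in coculture), RPS27L (0.89; 0.69 alone, -0.21 in coculture), IFITM2 (3.51; 3.14 alone, -0.38 in coculture), IFITM3 (3.71; 3.09 alone, -0.62 in coculture), FZD7 (2.69; 1.53 alone, -1.17 in coculture), TGFBR2 (2.31; 1.68 alone, -0.63 in coculture) and XBP1 (1.40; 0.98 alone, -0.42 in coculture). Genes lower in INA-6 alone and higher in coculture were SPIN4 (-4.99; -2.58 alone, 2.41 in coculture), ASB2 (-4.77; -2.88 alone, 1.89 in coculture), CYTH2 (-4.05; -1.88 alone, 2.17 in coculture), DERL3 (-2.41; -1.14 alone, 1.27 in coculture), SREBF1 (-3.14; -2.49 alone, 0.65 in coculture) and IGF1R (-3.42; -2.93 alone, 0.49 in coculture). DERL3, FAS, PTPN2 and RPS27L turned in sign alone with another choice of probe set. The RPL39L value alone rests on INA-6 arrays at 29.4 and 245, ran from 1.64 to 4.50 with 1 array left out, and lost its call under 9 of 20 alternatives; OSMR lost its call under 11 of 20, XBP1 under 10 of 21, FAS under 11 of 21 and RPS27L under 12 of 21. The ACTB 3′ to 5′ ratio was 5.52 in INA-6 alone and 32 in INA-6 coculture, against 22.4 and 31.4 in the MM.1 lines alone and 5.11 and 5.21 in coculture; its part in these differences was not tested. Stromal markers summed to 8006 and 8012 in INA-6 coculture and to 8948 to 14000 in MM.1 coculture. Alone they summed to 3377 and 4576 in INA-6 and to 1096 to 1527 in MM.1. The part of stromal RNA in these differences was not tested either.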

How the results depend on the processing

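Of 5635 genes called alone, array weights left 2597, the comparison with MM.1S only 1989 and with MM.1R only 2743. The 2-fold count of 4578 became 2561, 1989 and 2743 under these settings, and the 2556 kept in coculture became 1505, 1033 and 1342, and 1417 with duplicates averaged. The count differing between cultures, 5545, became 2887 with array weights. With 1 array left out the counts ran from 2432 to 8284, 2408 to 6172, 1419 to 3082 and 3632 to 8721, a lone array being assumed to vary like the other groups. Deviations between replicates correlated across cultures within MM.1S (0.42) and MM.1R (0.592), less so within INA-6 (0.066). Between MM.1S and MM.1R they ran opposite (-0.547 to -0.362). Whether replicate numbers were exchanged between these lines was not tested. A block by replicate number does not model deviations that run opposite ways in MM.1S and MM.1R. With that block the 4 counts were 4538, 4166, 1956 and 5287. Of 195 named genes 183 passed, 103 of them under every one of the 21 alternatives that gave a value, 77 lost the call under at least 1 and 23 of 195 changed sign under at least 1. In 30 genes 7 or more alternatives ended the call, among them CCND3, CCR10, CD3E, CTSS, DERL3, FAS, JUNB, OSMR, RPL39L, RPS27L, SPAG9, TNFRSF17 and XBP1. With quantile normalization, IRF4 was -0.027. With each array centred on its median, SDC1 was 0.22. With the mean of all tested probe sets, DERL3 was 0.098, FAS was -0.87, RPS27L was -0.22, SREBF2 was -0.61, TXNIP was -0.96, VEGFA was 0.51, KMT2D was -0.91, SMARCA4 was -0.40, RPLP2 was -0.36, DCN was 0.36 and STAT3 was 0.87. With probe sets free of an _x_ or _s_ suffix taken first, PTPN2 was -1.39, IGLV1-44 was 0.97, CASP1 was -2.05, CDC6 was -0.16, RPS27L was -1.81, TSC22D3 was 1.29, JUN was -0.99, PSMB2 was -0.55, RPLP2 was -2.34, DCN was 1.32 and HBB was -0.12. Against MM.1S only, SDC1 was 0.17. Against MM.1R only, SOCS3 was -0.30 and IRF4 was -0.66. With 1 array left out, the differences ran for SOCS3 from -0.077 to 0.14, IRF4 from -0.27 to 0.36, S100A9 from -0.87 to 2.09 and STAT3 from -1.59 to 0.41. The causes of these changes were not tested. Each line is 1 culture with technical duplicates, so the counts describe these RNA preparations, and the INA-6 duplicates disagree more than the others.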
